A study of Taeniopygia guttata with 134 samples.

Results

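The comparison is between the bed nucleus of the stria terminalis (labelled NST or NS) and the hypothalamus (labelled HY) of male zebra finches, Taeniopygia guttata, that had received the control injection. Its members are the 46 libraries with the injection code S in the title and a region of NST or HY, out of the 45 HY, 46 NST and 43 TN libraries in all. They come from 23 males, each with both regions, and are paired by the male number in the column name. The series also holds the nucleus taeniae (TN) and males injected with lipopolysaccharide (LPS). The sources used here give no strain, age, dose, time after injection or content of the control injection.

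After the injection the males were put into 1 of 4 social settings. In ISO the male was alone, and 6 males gave both regions. In KFC he stayed with a female he knew (5 males), in KF he met a known female again after separation (6 males), and in NF he was put with a female new to him (6 males). All 23 received the control injection, so injection does not differ within the comparison. The number at the end of a title was taken as the male's, so each replicate is a separate bird.

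The hypothalamus belongs to the diencephalon and governs hormone release through the pituitary, feeding, body temperature and reproduction, with many small nuclei of peptide-secreting neurons. The bed nucleus of the stria terminalis lies close to it in the basal forebrain, is part of the extended amygdala, and consists largely of inhibitory neurons that project to the hypothalamus and brainstem. Both are nodes of the network that controls social behaviour in vertebrates, and in songbirds the bed nucleus contains vasotocin neurons that have been tied to sociality. Single genes are given by identifier, because the files do not pair identifiers with names and the gene table at hand matched 0 of 18618. The labelled regions could therefore not be checked against defining marker genes, and no sequence or role is given for any gene.

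The HY libraries held 7339294 to 13159755 reads counted in genes (median 8692235), and the NST libraries 7981242 to 11879211 (median 9352799). The HY libraries of 3 males were singled out by their correlations with the median profiles. The HY library of male 28 (NF) correlated across genes at 0.974 with the median HY profile and at 0.972 with the median NST profile. For the HY library of male 31 (KF) these values were 0.982 and 0.973. The HY library of male 44 (KF) correlated with the median HY profile at 0.902, and that of male 58 (NF) at 0.963, against at least 0.973 in the other males. Results are therefore given with and without these 3 males, a choice made after the data had been seen. Males 28, 44 and 58 also had the shortest distances between their own HY and NST libraries, as given below (0.26, 0.49 and 0.58, next 0.83). Leaving them out therefore favours more calls and larger differences, so rises without them are a description. Among NST libraries the lowest correlations with the median NST profile were 0.966 in male 5 (ISO) and 0.970 in male 4 (NF), and both males were kept.

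The bed nucleus and the hypothalamus differed in the level of 5920 of 13371 genes tested, which is 44.3%. Of these, 2840 were higher in NST (21.2% of genes tested) and 3080 were higher in HY. These calls come from edgeR's quasi-likelihood test of a difference common to the 4 settings. The male was a block, and the limit was a Benjamini-Hochberg adjusted p under 0.05. Most differences were small. The median log2 difference of NST minus HY was 0.31 among genes higher in NST and -0.33 among genes higher in HY, with a median SE of 0.07 over all genes, and 5507 of the called genes (93.0%) lay within 2-fold. In bulk tissue, fewer cells of a type and less RNA per cell cannot be told apart. Without males 28, 44 and 58 the calls numbered 7312, of which 3495 were higher in NST and 3817 higher in HY, and 5732 of the 5920 genes were among them.

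Large differences were found in both directions. More than 2-fold differences were called for 413 genes (3.09% of those tested), 219 of them higher in NST and 194 higher in HY. More than 4-fold differences were called for 46 and 32 genes, and more than 8-fold for 15 and 17. The counts over 2-fold without males 28, 44 and 58 were 250 in NST and 259 in HY, and those over 8-fold 22 and 18. The region with more genes changed at both of these limits. Over 4-fold the counts without the 3 males were 53 and 36, so NST had more with and without them. Over all tested genes the median log2 difference was -0.01, and the central 80% lay between -0.39 and 0.35. The share of all reads taken by the 219 genes over 2-fold higher in NST had a median of 0.835% in HY libraries (range 0.575% to 1.58%) and 2.77% in NST libraries (1.44% to 6.78%). For the 194 genes over 2-fold higher in HY it was 0.778% in HY (0.584% to 1.14%) and 0.352% in NST (0.160% to 0.571%). The ranges of the HY-enriched genes did not overlap between regions, whereas those of the NST-enriched genes did. Of the NST-enriched genes, ENSTGUG00000010708 alone took a mean of 0.726% of reads in NST libraries and 0.0202% in HY libraries. These gene sets were chosen by the same contrast, so their shares are a description.

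The balance of directions differed with the level of the gene. Among 3842 genes with a mean of 1 to 10 CPM (read counts relative to the scaled library total), 36.7% were called, and 515 were higher in NST against 895 in HY. Among 7463 genes at 10 to 100 CPM, 45.3% were called, with 1657 higher in NST and 1721 in HY. Among 2061 genes at 100 CPM or more, 54.9% were called, with 668 higher in NST and 464 in HY. Without males 28, 44 and 58 there were 590 called genes higher in NST and 1003 higher in HY at 1 to 10 CPM, and 799 and 607 at 100 CPM or more. In LPS males, which are separate birds, there were 517 and 821 at 1 to 10 CPM, and 743 and 579 at 100 CPM or more. The median size of a called difference fell with level, from 0.54 to 0.28 and 0.24 on the log2 scale. Smaller differences pass the test at higher counts, and the part of depth in the share called was not tested.

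**Figure D1:**
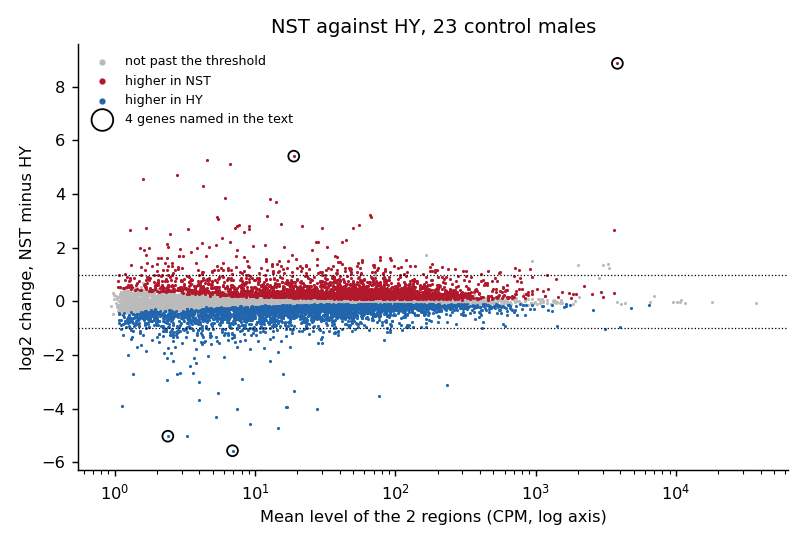
Log2 difference of NST minus HY (vertical axis) against the mean level of the gene in both regions (CPM, log axis), with 1 point per tested gene. Red points are the 2840 genes called higher in NST and blue points the 3080 called higher in HY; dotted lines mark 2-fold, and most coloured points lie between them.

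Some genes kept their direction in every bird. In all 23 males 277 genes were higher in NST (2.07% of those tested) and 187 were higher in HY (1.40%). The levels of all 23 NST libraries lay above those of all 23 HY libraries for 21 genes (0.157%), and the reverse held for 19 genes (0.142%). Among the 20 males other than 28, 44 and 58, 719 genes were higher in NST and 716 higher in HY in every bird, and the libraries did not overlap for 107 and 55 genes. A switch between regions was rare. With all males 0 genes reached 1 CPM in every NST library while staying under 1 CPM in every HY library, and 1 gene did so in the opposite direction. Without the 3 males these counts were 1 and 2. Counts that ask for every bird or every library cannot fall when birds are left out. The rises without the 3 males are therefore a description.

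The widest difference towards the bed nucleus belonged to ENSTGUG00000010708. In NST its level ran from 1448 to 25877 CPM, with a median of 5282, and in HY from 0.577 to 2525 CPM, with a median of 8.11. It took 0.726% of the reads of an average NST library, where it ranked as the 8th most abundant gene by mean CPM, and 0.0202% in HY, where it ranked 797th. It was higher in NST in 23 of 23 males. Named genes were chosen on these birds for an adjusted p under 0.05, the same sign in 23 males and the largest differences. The sign count, size and adjusted p of each in control males are therefore a description. The fitted log2 difference was 8.87 (SE 0.81, edgeR adjusted p = 6.20e-09), a 469-fold difference. Without the block it was 5.98, and the mean level was 7444 ± 5695 CPM in NST and 197 ± 549 in HY (SD, n = 23). With the block it was 10.01 in ISO (SE 1.58), 8.62 in KFC (SE 1.76), 8.84 in KF (SE 1.61) and 7.62 in NF (SE 1.63), with edgeR adjusted p-values of 0.000221, 0.00151, 0.000613 and 0.00545. Without the block the NF call was lost, with a log2 difference of 3.98 and an edgeR adjusted p of 0.124.

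The level of ENSTGUG00000010708 in the hypothalamus spanned a wider ratio between birds than its level in the bed nucleus. In 18 of the 23 HY libraries it lay under 35 CPM. The other 5 were male 28 with 2525 CPM, male 20 with 858, male 31 with 469, male 70 with 416 and male 50 with 119. The HY and NST ranges overlapped only through male 28, whose HY level exceeded the NST level of male 39, the lowest at 1448 CPM. The ratio of NST to HY was 2.09 in male 28, 7.99 in male 31, 8.40 in male 70 and 30.2 in male 20, against 8503 in male 36. In TN of control males, scaled over all libraries together, the level had a median of 4.94 CPM and ran from 0 to 3218 (n = 22). Side by side, TN thus lay near HY and not near NST for this gene.

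ENSTGUG00000008987, the second gene towards the bed nucleus, was far less abundant and followed the same birds. In NST it ran from 8.32 to 131 CPM, with a median of 33.1, and in HY from 0 to 13.6, with a median of 0.218. No read was counted in 7 HY libraries. It was higher in NST in 23 of 23 males, with a log2 difference of 5.41 (SE 0.40, edgeR adjusted p = 6.74e-11). The highest HY levels were again those of male 28 (13.6 CPM), male 20 (7.37), male 31 (2.52) and male 70 (1.58), and male 50 came next with 0.961. Without males 28, 44 and 58 the highest HY library stood at 7.37 and the lowest NST library at 8.32 CPM, so the regions no longer overlapped. For ENSTGUG00000010708 these limits were 858 and 1448 CPM. In TN the median of ENSTGUG00000008987 was 0.226 CPM (range 0 to 16.4, n = 22).

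The widest difference towards the hypothalamus belonged to ENSTGUG00000002868. In HY it ran from 5.32 to 24.5 CPM, with a median of 13.2, and in NST from 0 to 1.55, with a median of 0.117. The lowest HY library, that of male 66, lay above the highest NST library, that of male 28. In 22 of 23 NST libraries fewer than 10 reads were counted, and in 6 none. The log2 difference of NST minus HY was -5.56 (SE 0.27, edgeR adjusted p = 2.50e-15). In TN the median was 0.278 CPM (range 0 to 0.714, n = 22).

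ENSTGUG00000007530 came next in that direction, level with the gene after it, since both had a log2 difference of -5.02. By limma on the differences within males its value was -3.69. In HY it ran from 0.482 to 13.9 CPM, with a median of 4.05, and in NST from 0 to 0.409, with a median of 0.114. The regions did not overlap, although the lowest HY library, that of male 4 with 4 reads, came close to the highest NST library, that of male 70 with 4 reads. The SE of its log2 difference was 0.24 (edgeR adjusted p = 1.56e-15). The highest HY level was that of male 44. In TN the median was 0 and the highest library stood at 0.344 CPM (n = 22).

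**Figure D2:**
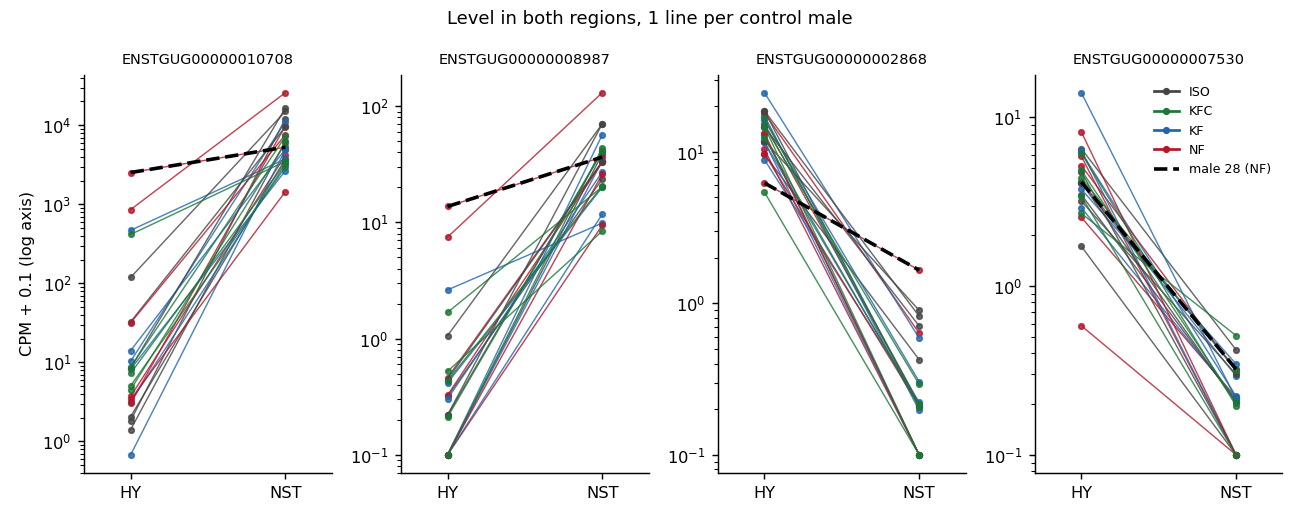
Level of the 4 named genes in HY and NST (CPM + 0.1, log axis), with 1 line per control male, coloured by social setting; the dashed line is male 28. For both genes higher in NST male 28 has the highest HY level (2525 and 13.6 CPM) and the flattest line, and for ENSTGUG00000002868 it has the highest NST level (1.55 CPM).

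The next 10 genes in each direction, by the same rule of a difference in every male and a mean of at least 1 CPM, had log2 differences of 5.13 down to 3.13 towards NST and of -5.02 to -3.67 towards HY. Those towards NST had mean levels of 3.04 to 118 CPM in NST and of 0.114 to 13.2 CPM in HY. Those towards HY had mean levels of 2.12 to 52.7 CPM in HY and of 0.131 to 2.28 CPM in NST. All 10 towards NST and all 10 towards HY were called in each of the 4 settings, which is a description, since they were chosen on the same birds. Over all 13371 genes tested, 758 were called in all 4 settings. In LPS males 8 and 10 of them were tested, and all of those were called in the same direction. Among all 13428 genes tested in LPS males, 3176 were called higher in NST and 3426 higher in HY.

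Male 28 stood out across the leading genes of both directions, and males 20 and 31 across those towards NST. Of the 12 leading genes towards NST, 9 had their highest HY level in male 28 and 3 in male 31. The 4 highest HY libraries included male 28 for all 12 genes, male 20 for 8, male 31 for 8 and male 70 for 5. Of the 12 leading genes towards HY, 4 had their highest NST level in male 13, 3 in male 28 and 2 in male 58, and the 4 highest NST libraries included male 28 for 9 genes, male 13 for 7, and males 20, 31 and 70 for 1 each. Whether tissue of the neighbouring region was present in a library was not tested.

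Each library was also placed on a line between the mean of the HY libraries (0) and the mean of the NST libraries (1) of the other males, over the genes called without that male. NST libraries lay between 0.65 and 1.39, and HY libraries between -0.28 and 0.46, so the regions did not overlap. The highest HY libraries were those of male 28 (0.46), male 20 (0.34) and male 31 (0.29). The lowest NST libraries were those of male 58 (0.65), male 39 (0.66) and male 44 (0.70). The HY libraries of males 58 and 44 lay at 0.07 and 0.20. The distance between a male's own libraries had a median of 1.04 and ran from 0.26 in male 28, 0.49 in male 44 and 0.58 in male 58 to 1.17 in male 68. In the other 20 males it ran from 0.83 to 1.17, with a mean of 1.03 ± 0.10 (SD, n = 20). The 22 TN libraries of control males, placed on the same line, had a median of 1.06 and ran from 0.68 to 1.43, and so lay around the NST mean on this line. A position on the line does not show differences off it. For ENSTGUG00000010708 and ENSTGUG00000008987 the TN medians (4.94 and 0.226 CPM) lay near those of HY (8.11 and 0.218), not of NST (5282 and 33.1).

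The bird-by-bird recurrence of the large differences was read in each male from genes chosen without it. When a male was left out, between 397 and 443 of the genes tested with all males were called with more than 2-fold differences. In that male a median of 96.6% of them had the same direction, from 99.8% in male 52 to 89.9% in male 4 among the 20 males, and 84.2% in male 58, 78.2% in male 44 and 76.1% in male 28.

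**Figure D3:**
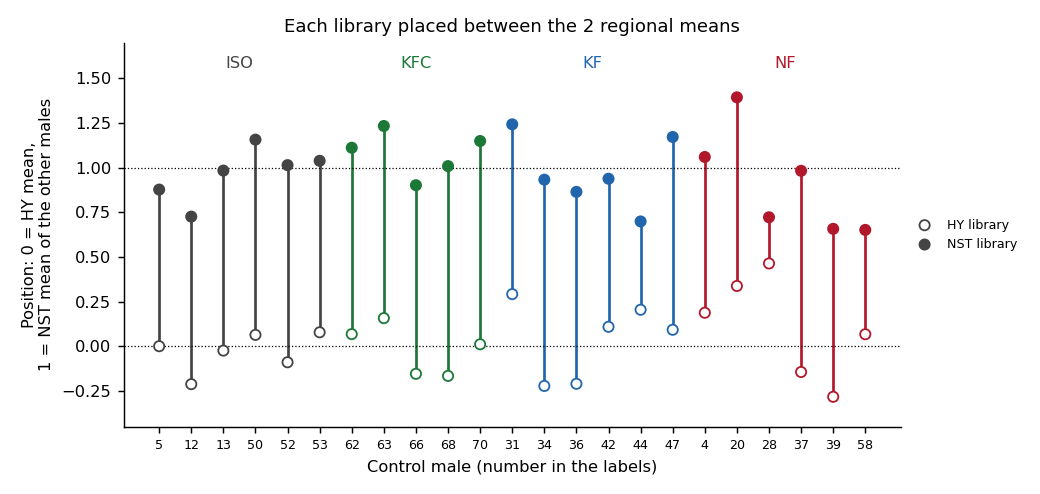
Position of each library of the 23 control males on a line from the mean HY profile (0) to the mean NST profile (1) of the other males, with open circles for HY and filled circles for NST, grouped by social setting. The lines joining a male's libraries are shortest in male 28 (0.26), male 44 (0.49) and male 58 (0.58).

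Region accounted for a modest part of the variation between libraries. Over 13366 genes with a mean of at least 1 CPM, the median share of the variance in log2 CPM that lay between regions was 5.65%, and for 676 genes (5.06%) it was over 50%. Without males 28, 44 and 58 these values were 8.98% and 1258 genes (9.41%). A median of 57.6% lay between males, a share that also holds chance differences, since 22 of the 45 degrees of freedom lie between males. The region with the wider spread between birds changed with the males included. With all males the median SD of log2 CPM was 0.34 in HY and 0.28 in NST, and 67.8% of genes varied more in HY. Without male 44 both medians were 0.28, and 48.9% of genes varied more in HY. The medians without males 28, 44 and 58 were 0.26 in HY and 0.28 in NST, and 42.9% of genes varied more in HY.

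The regional difference was then taken in each social setting. In ISO 1008 genes were higher in NST and 925 higher in HY (14.5% of genes tested), and in KFC 1489 and 1488 (22.3%). In KF 1438 were higher in NST and 1246 higher in HY (20.1%), and in NF 644 and 501 (8.56%). NF had the fewest calls, with as many males as ISO and KF. It was also lowest among LPS males, which are separate birds, with 1373 genes called. There KF gave 3995 calls, KFC 3464 and ISO 1718. NF and KFC held 5 LPS males each with both regions, and ISO and KF 6 each. Among control males NF holds males 28 and 58. It gave 1442 calls without male 28 alone and 1220 without male 58 alone. Without males 28, 44 and 58 the counts were 3286 in ISO, 4497 in KFC, 3094 in KF and 2662 in NF. The NF value then rests on fewer birds, since males 28 and 58 are among its 6. Counts in a setting moved when single birds were left out, also birds of other settings. The 4 settings were fitted together with a shared estimate of the spread, so their counts are not independent. Without male 44 the median SE went from 0.142 to 0.120 in ISO and from 0.143 to 0.121 in NF. The cause of the moves was not tested. ISO gave 2911 calls without male 44, 1249 without male 50 and 1286 without male 52, and KFC gave 1880 without male 70. NF gave 1924 without male 44, 711 without male 4, 697 without male 20 and 643 without male 37.

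**Figure D4:**
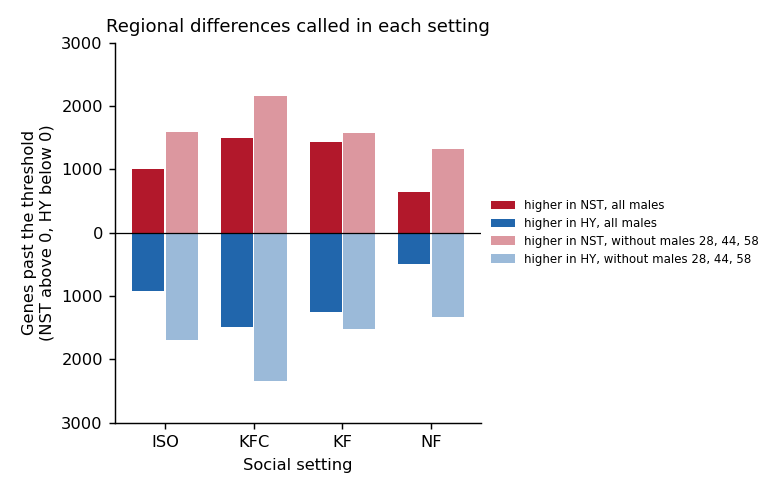
Number of genes called higher in NST (bars above 0) and higher in HY (bars below 0) in each social setting, with all males (dark) and without males 28, 44 and 58 (pale). In each setting the total rises when the 3 males are left out, in NF from 1145 to 2662 genes.

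The settings shared direction, although they consist of different birds. Across the 6 pairs of settings 0 genes were called in opposite directions. Of 4453 genes called in at least 1 setting, 758 were called in all 4 in the same direction, 440 of them higher in NST and 318 higher in HY, and 2276 were called in 1 setting. In all 4 settings 1643 genes were called without males 28, 44 and 58. The 1145 NF calls were shared with ISO for 79.6%, with KFC for 82.8% and with KF for 78.9%, whereas the NF list held 47.1% of the ISO calls, 31.8% of the KFC calls and 33.6% of the KF calls. The genes called in NF had the same sign in ISO for 99.4%, against 76.9% of all genes tested. The lowest such value was 93.7%, for KFC genes in KF, and over all genes no pair of settings exceeded 78.8%. Of the 413 genes with more than 2-fold differences over all males, 412 had the same sign in each of the 4 settings, and their median size was 1.33 in ISO, 1.51 in KFC, 1.38 in KF and 1.12 in NF on the log2 scale. These 413 were chosen over the same birds, so the last values are a description.

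No dependence of the regional difference on social setting passed the test. The interaction of region and setting gave 0 of 13371 genes (0%) with edgeR, and DESeq2 called 8. With edgeR 566 genes had an unadjusted p under 0.05, a limit that a share of 0.05 of genes passes by chance alone. Without male 58 edgeR called 2 genes. The 4 named genes had interaction adjusted p-values of 0.867 to 0.934 with edgeR. The median SE of the log2 difference in a setting was 0.14 to 0.16, with 5 or 6 males each, and a p that misses the threshold does not show that the settings were alike. The distance between a male's libraries averaged 0.997 ± 0.0894 in ISO (SD, n = 6), 1.10 ± 0.0563 in KFC (SD, n = 5), 0.931 ± 0.243 in KF (SD, n = 6) and 0.806 ± 0.328 in NF (SD, n = 6). The settings did not differ detectably in it (2-sided permutation test of the variance ratio over 100000 permutations, p = 0.166, and p = 0.357 without males 28, 44 and 58).

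Males injected with LPS, a bacterial endotoxin used to provoke a sickness response, were a separate set of 22 birds with both regions and share no library with the control males. Fitted on their own, they gave 6602 genes of 13428 (49.2%), 3176 higher in NST and 3426 higher in HY. Of 13239 genes tested in both sets, 5880 were called in control males and 6547 in LPS males. Both sets called 4761 genes in the same direction, 2308 higher in NST and 2453 higher in HY, which is 81.0% of the control list and 72.7% of the LPS list, and 4 genes were called in opposite directions. Of the 413 genes with more than 2-fold differences in control males, 403 were tested in both sets. Among these 403 genes, 399 were called in LPS males in the same direction and 403 had the same sign. The same sign was found for 98.3% of the control calls and for 85.0% of all genes. Across genes, which are not independent replicates, the log2 differences of the 2 sets had a Pearson r of 0.937, and the slope of LPS males on control males over the genes beyond 2-fold was 0.97.

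**Figure D5:**
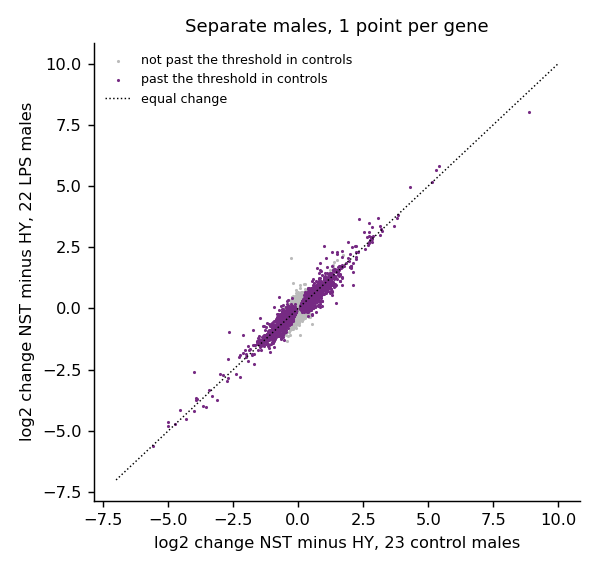
Log2 difference of NST minus HY in 22 LPS males (vertical axis) against that in 23 control males (horizontal axis), with 1 point per gene and a dotted line of equal change. Purple points, the genes called in control males, follow the line from the HY end to the NST end, with a slope of 0.97 beyond 2-fold.

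The 4 named genes kept their directions in LPS males. The log2 difference was 8.02 for ENSTGUG00000010708 (SE 0.70, edgeR adjusted p = 5.26e-09) and 5.83 for ENSTGUG00000008987 (SE 0.40, edgeR adjusted p = 7.81e-11). It was -5.63 for ENSTGUG00000002868 (SE 0.27, edgeR adjusted p = 2.76e-14) and -4.63 for ENSTGUG00000007530 (SE 0.28, edgeR adjusted p = 9.84e-13). The HY level of ENSTGUG00000010708 again varied widely, from 0.430 to 3519 CPM with a median of 13.3 (n = 22), while NST ran from 600 to 19402 CPM with a median of 8414 (n = 23). The distance between a male's libraries on the line of the control males had a median of 0.99 in LPS males and ran from 0.58 to 1.36.

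Whether the regional difference itself depended on the injection was tested over the 23 control and 22 LPS males with both regions. It did so for 10 of 13512 genes (0.0740%) by edgeR. At an unadjusted p under 0.05, which a share of 0.05 of genes passes by chance alone, there were 749 genes. In 8 of the 10 the value of NST minus HY was higher in LPS males, and the sizes of the change ran from 0.62 to 2.31 on the log2 scale. Of the 10 genes, 6 were called between regions in control males, where 44.3% of all genes tested were. Of the 9 genes tested in each set, 4 had opposite fitted signs in LPS and control males. None of the 4 named genes was among them, with edgeR adjusted p-values of 0.980 to 0.998.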

How the data were processed

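Per the labels' protocols, NEBNext Ultra libraries were made from polyA RNA. The authors deposited raw gene counts, as whole numbers; HISAT2 and HTSeq 0.6.1 are named in the submitters' processing notes. Genome build, annotation and strand setting: not given in the sources used here. Overlapping or near-identical genes may share reads. Columns were assigned to libraries by label, and all lines of the table were genes.

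Counts of the 46 libraries were tested with edgeR 4.0.16 (R 4.3.3). Genes were kept by filterByExpr on region (at least 10 counts, total at least 15) and TMM factors scaled the libraries. The robust quasi-likelihood fit, on the dispersion trend, had terms for male (the block) and for region, overall or within each setting. Tests were 2-sided with Benjamini-Hochberg adjustment over all genes tested and a threshold of 0.05. An SE is the size of the fitted change divided by the root of its F. The 13371 genes tested passed the filter in NST or HY, so a gene can have passed through the region where it is high. Only the fit of the common difference and the interaction of region and setting were run on simulated counts, made for the 46 control libraries.

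Libraries were paired by the number in their titles, and the design text says that the regions were dissected from the males' brains. Deviations from group means correlated across genes in same-numbered libraries at a median of 0.566, and above 0.1 in 23 of 23 males. Libraries with different numbers were not compared in this way, so these values do not test the pairing. No library was merged with another, since any pair from the same region differed beyond counting error (chi-square per gene at least 8.49). The biological coefficient of variation was 0.174, and 0.136 without males 28, 44 and 58. Total counts ran from 7339294 to 13159755 per library, so levels under 1 CPM rest on few reads.

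Named genes were the 2 with the largest fitted difference in each direction among genes past the threshold, with a mean of at least 1 CPM and the same sign in 23 males. The 18 gene and marker lists drawn up could not be used without gene names. Members, lists and tests were chosen with earlier results of these data known. Positions and distances used log2 CPM (prior count 2). CPM of control HY and NST libraries are scaled within the comparison, and those of TN and LPS libraries over the whole series. Alternatives were RLE scaling, no filter, DESeq2 1.42.0, limma 3.58.1, no block, all libraries in 1 fit and leaving out males. Plots used matplotlib 3.10.9 (Python 3.11.15).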

Additional observations from a re-analysis of the deposited data

Results flagged for a closer look

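Of 60 checks of a measure within a group of control libraries, 6 found a value far from the rest. A share of about 1 in 20 by chance is only a rough guide. The checks reuse the same libraries and include the named genes, so they are not independent. In KFC males the HY level of ENSTGUG00000010708 in male 70 stood at 8.70 on the log2 CPM scale, with the next male at 3.14. In KF males the HY level of ENSTGUG00000008987 in male 31 stood at 1.46 on the log2 CPM scale, with the next male at -0.90. Male 31 also had the deepest HY library, with 13159755 reads against 9708330 in the next KF male. In KFC males the HY level of ENSTGUG00000002868 in male 66 was low, at 2.47 on the log2 CPM scale against 3.65 in the next.

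The HY library of male 44 correlated with the HY median at 0.902 across genes, where the next lowest KF library reached 0.975, and the NST library of male 5 correlated with the NST median at 0.966 against 0.979 in the next ISO male. Without male 44 the regions differed in 6903 genes against 5920 with all males.

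The regional difference itself differed between LPS and control males for 10 genes by the test of the interaction. Without males 28, 44, 58, 32, 33 and 19 the test called 11 genes, of which 7 were the same. This fit was not planned. The LPS males 32, 33 and 19 had distances between their libraries of 0.98, 1.36 and 0.70.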

How the results depend on the processing

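The count of genes called between regions ran from 5604 to 6903 when each male was left out, and those over 2-fold from 399 to 445; without the filter on low counts 668 genes were over 2-fold. Without the replicate block 4661 genes were called between regions. By setting the calls without it were 955 in ISO, 1756 in KFC, 1522 in KF and 547 in NF. The difference between injections then gave 5. Leaving out each male gave 1249 to 2911 calls in ISO, 1880 to 4120 in KFC, 2087 to 2850 in KF and 643 to 1924 in NF, and 0 to 2 for the interaction with setting, where DESeq2 gave 8. Without males 4 and 44, ISO gave 2973; without males 28, 44 and 58, ISO gave 3286, KFC 4497 and NF 2662. The cause of these moves was not tested. The 4 named genes kept their direction and their call in each of 31 alternatives, with log2 differences of 5.98 to 9.15 for ENSTGUG00000010708, 5.08 to 6.95 for ENSTGUG00000008987, -6.21 to -5.00 for ENSTGUG00000002868 and -5.21 to -3.69 for ENSTGUG00000007530; in single settings the call of ENSTGUG00000010708 in NF was lost without the block (log2 difference 3.98, edgeR adjusted p = 0.124), and the others held. The named genes were chosen on the same birds, so their recurrence in these alternatives is a description. Counts by gene list were not run for want of gene names. Depth limits genes with few reads, such as ENSTGUG00000007530 with 4 or fewer in each NST library.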
